A study of Homo sapiens with 12 samples.

Results

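Ribosome biogenesis was followed through 38 genes of 57736 in the deposited tables. The genes were chosen by name for the known function of their products, and cover RNA polymerase I with its factors (6 genes), nucleolar chaperones and helicases (4), the box C/D small nucleolar ribonucleoproteins (4), the small subunit processome with maturation of the 40S subunit (12) and maturation of the 60S subunit (12). For each gene the counts of all its 3′ regions were summed, and 37 of the 38 were found under the symbol used here, while UTP4 is listed under its older name CIRH1A. HepG2 cells (hepatocellular carcinoma of the liver) and Ls174 cells (colon carcinoma), labelled WT in genotype, were cultured for 24 h without addition (control) or with 0.7 mg/ml of HME, an extract of the red seaweed Hypnea musciformis, a concentration that the labels describe as the IC50, while the methods of the study state a slightly higher concentration. Each of the 4 groups comprised 3 biological replicates, giving 12 libraries. The comparisons address how HME changed these genes in each line, whether the lines responded differently and how the untreated lines differed.

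Ribosomes are assembled in the nucleolus, where RNA polymerase I, brought to the ribosomal DNA by UBTF and RRN3, transcribes the precursor of the ribosomal RNAs. Box C/D particles guide the methylation of this precursor, the small subunit processome folds and cleaves the part that becomes the 40S subunit, and a separate chain of assembly factors matures the 60S subunit. The pathway is a large expense of dividing cells, many of its genes are targets of MYC, and disturbance of the nucleolus is known to stabilise p53.

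The total count of a library lay between 1790841 and 3656662, and the members were read deeply enough for a test, with only 2 of 456 values (38 genes in 12 libraries) under 10 counts. Both values belonged to Ls174 control 1, which had 0 counts of UTP20 and 7 of UTP15. Levels are given as CPM, counts relative to the TMM-scaled total of the library, on 1 scale for all 12 libraries. The liver markers ALB and AFP, which code for serum albumin and alpha-fetoprotein, lay at 2155 CPM or above in every HepG2 library. CDX1, an intestinal transcription factor, lay between 76.8 and 207 CPM in the Ls174 libraries, whereas 3 other intestinal markers, CEACAM5, MUC2 and KRT20, did not exceed 6.04 CPM there. Of the same list, CDX2, LGALS4 and TFF3 had higher means in Ls174 than in HepG2 controls, whereas the mean of VIL1 was lower (62.8 against 136 CPM). The 8 liver markers summed to 127 CPM in Ls174 control 3 and 57.9 CPM in Ls174 HME 1, and to at most 9.53 CPM in the other Ls174 libraries. A pair of control libraries stood apart from their own replicates. In HepG2 control 2, 18 of the 38 members lay more than 1.5-fold above or below both other HepG2 controls (47.4% of members, against 46.6% of all genes), and in Ls174 control 1 this held for 14 members (36.8%, against 47.5% of all genes). No other library had more than 5 such members. HepG2 HME 2 contained 964 CPM of 6 summed mesenchymal markers, nearly all of it from COL1A1 and COL1A2, compared to at most 10.5 CPM in the other libraries. For a part of the results that rest on these libraries, values are therefore given with and without them. In RNA from whole cultures, a change in the number of cells of a kind and a change of RNA per cell cannot be told apart.

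Of 4 short motifs searched, 2 occurred in a higher share of the members' promoters than of promoters at large, and the sites in members with the largest responses are shown here. Promoter windows of 300 bases (250 before the start and 50 after it, RefSeq, GRCh38.p14) were found for 32 of the 38 members, with 40 windows in all. The E-box CACGTG, a palindrome that MYC and related factors are known to bind, occurred in windows of 15 of the 32 members (46.9%), compared to 8.78% of 27305 genes and 7.26% of 35116 windows. Of the 17 E-boxes found, 15 began within 50 bases of a start site, and UTP18 had a pair of them in 1 window. Since the window ends 50 bases after the start, every site past the start falls within that distance. The same share was not computed for promoters at large. The motif CCGGAAG, the core of ETS-family sites, was found on either strand in 13 members (40.6%, against 12.2% of genes), whereas TATAAA occurred in 1 member (UTP20; 13.99% of genes) and CCAAT in 13 members (40.6%, against 39.7% of genes). The median GC content was 64.2% in the windows of the members and 58.7% in all windows, and the part of base composition in these shares was not tested. A match describes the letters in the window and is not evidence of binding. Among the 7 members that were higher in HME-treated HepG2 cells at the thresholds of the study, 3 had an E-box and 4 had the ETS motif, with DDX21 holding both in different windows, and in NOP16 and at a site of POLR1C the motif was read on both strands at overlapping positions. The windows below give 30 bases of the strand of the gene, 5′ to 3′, with the motif in capitals, for RRN3 (chr16:15094292-15094321, minus strand), POLR1C (chr6:43516865-43516894, plus strand), NOP16 (chr5:176388600-176388629, minus strand), DDX21 (chr10:68956604-68956633, plus strand), BYSL (chr6:41921515-41921544, plus strand) and WDR43 (chr2:28894658-28894687, plus strand).
RRN3: tggcacgcgcaaCTTCCGGgacagaggctg
POLR1C: agatgtgggcctCCGGAAGgtagacgtcca
NOP16: ccttgtgcacgcCTTCCGGaaggagtttgt
DDX21: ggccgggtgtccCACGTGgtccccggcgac
BYSL: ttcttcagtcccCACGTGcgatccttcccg
WDR43: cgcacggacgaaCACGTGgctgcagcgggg
The RRN3 and POLR1C windows hold the ETS motif and no E-box, whereas BYSL and WDR43 hold an E-box and no ETS motif. NOB1, which was also higher, had none of the motifs CACGTG and CCGGAAG in its window.

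In HepG2 cells, HME raised 2 members of the RNA polymerase I group, RRN3 and POLR1C, and no member was called lower. These 2 of 38 members were called at an adjusted p under 0.05, at a background of 2.77% of the 11343 genes tested that were called higher and 0.538% called lower. At the thresholds of the study (a log2 fold change beyond 0.58 with an unadjusted p under 0.05), 7 members were higher (RRN3, POLR1C, DDX21, BYSL, NOB1, NOP16 and WDR43; background 11.3%) and 1, RRP1, was lower (background 10.9%). The 3 HME libraries lay above all 3 controls for 9 members (background 15.5%) and below them for 3 (background 15.3%). The median log2 fold change of the 38 members was 0.10, with 21 above and 17 below 0. That of all genes tested was -0.04, with 47.7% above 0. DESeq2 called DDX21 in addition (3 members higher and none lower). It called 623 of all 11343 genes higher and 410 lower. The called members were too few to set their share apart from the background. Fold changes come from the edgeR fit of the comparison named.

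RRN3, the factor that recruits RNA polymerase I to the promoter of the ribosomal DNA, showed the largest response. Its level was 120, 113 and 81.2 CPM in the HepG2 controls and 259, 338 and 367 CPM after HME. The lowest treated library was thus above the highest control, and HepG2 control 2 lay between the other controls for this gene. The log2 fold change was 1.62 (SE 0.33, adjusted p = 0.028), or 3.08-fold, and it was 1.74 (SE 0.29, adjusted p = 0.0076) without HepG2 control 2. In the absence of any 1 of the other 5 libraries the log2 fold change stayed between 1.46 and 1.78, while the adjusted p rose to between 0.0667 and 0.14. Reads of RRN3 were counted almost wholly in 1 region (GRCh37, chr16:15153682-15155600, minus strand, 99.98% of its counts), of which 1711 of 1919 bases are annotated as untranslated region. The 3 pseudogenes of RRN3 held between 4 and 41 counts per library, at most 9.19% of the count of the gene, and how reads with several alignments were counted is not given in the sources used here.

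POLR1C, a subunit shared by RNA polymerases I and III, was at 33.9, 16.2 and 27.9 CPM in the HepG2 controls and at 76.4, 70.7 and 61.9 CPM after HME. The groups did not overlap, and the lowest value was that of HepG2 control 2. The log2 fold change was 1.43 (SE 0.33, adjusted p = 0.0493), and it was 1.24 (SE 0.25, adjusted p = 0.0176) without HepG2 control 2. In the absence of another library it lay between 1.39 and 1.65 with an adjusted p between 0.0633 and 0.156. Among the 9 other settings POLR1C was called in 3, with an adjusted p of up to 0.0941, and RRN3 in 8. Without HepG2 HME 2, the library with mesenchymal transcripts, the log2 fold change was 1.60 for RRN3 and 1.44 for POLR1C, close to the values with it. The other members of the group did not pass the test. The log2 fold change was 0.83 (SE 0.41, adjusted p = 0.26) for POLR1B, the second largest subunit of the enzyme, and 0.06 (SE 0.43) for POLR1E, a subunit of its own heterodimer. POLR1A, the largest subunit, was at 35.2, 38.0 and 36.4 CPM in the controls and 26.9, 28.99 and 26.4 CPM after HME. These POLR1A values did not overlap, but the log2 fold change of -0.40 (SE 0.29, adjusted p = 0.43) was within the spread that the model estimates for such genes. For UBTF, the factor that covers active ribosomal DNA, it was -0.76 (SE 0.42, adjusted p = 0.31), and -0.43 (SE 0.37) without HepG2 control 2.

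**Figure D1:**
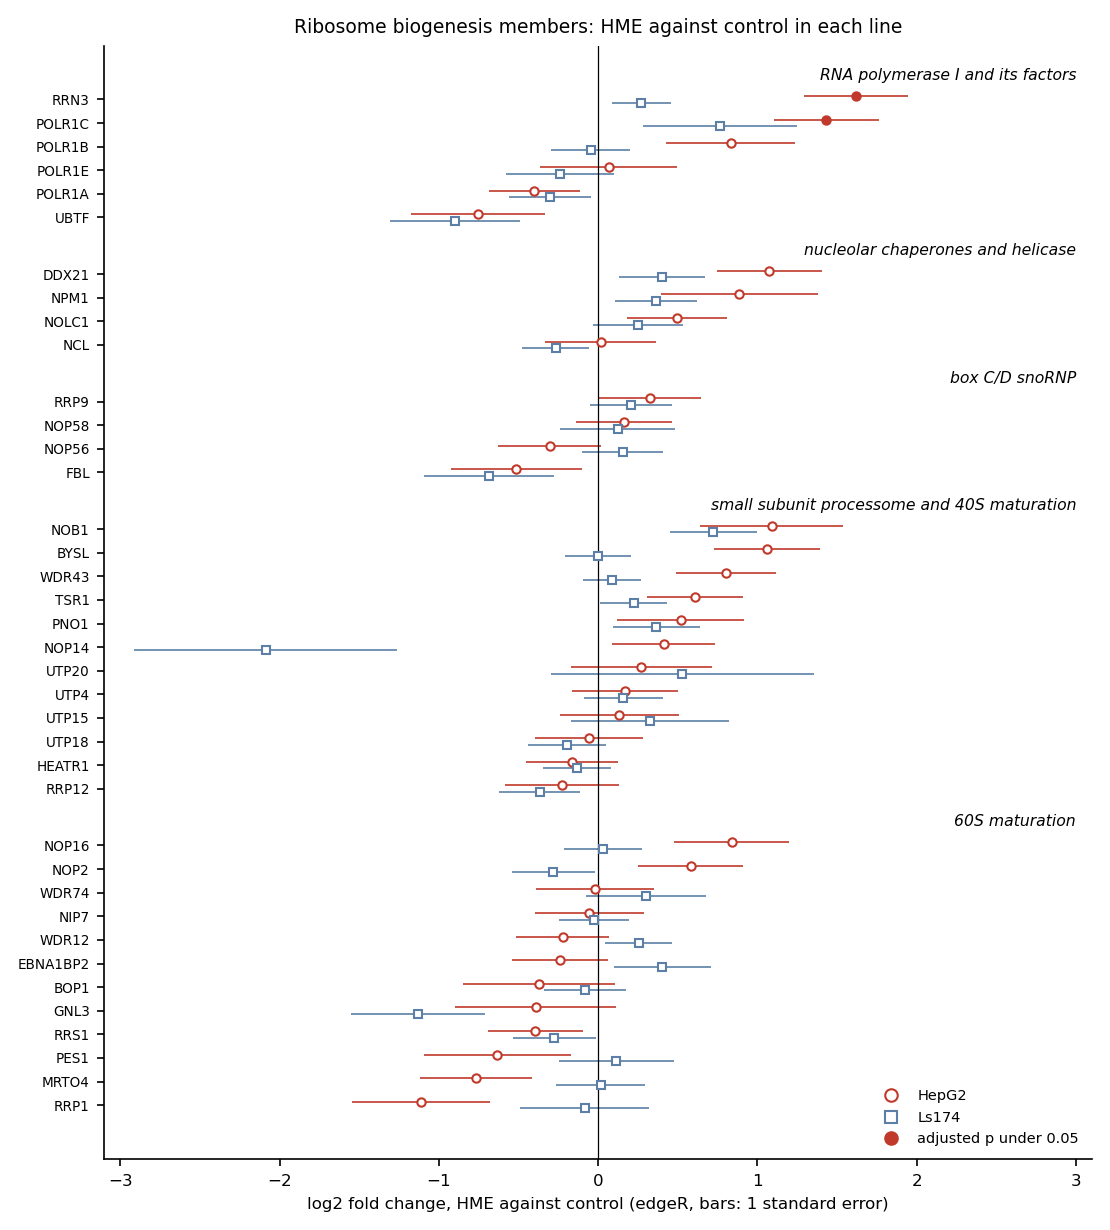
Log2 fold change of HME against control (x axis, edgeR) for each of the 38 members (y axis, grouped by role), with circles for HepG2, squares for Ls174 and bars of 1 standard error; filled symbols have an adjusted p under 0.05. Only RRN3 (1.62) and POLR1C (1.43) in HepG2 are filled, and NOP14 in Ls174 (-2.09) has one of the widest bars.

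All 4 nucleolar chaperones and helicases had a positive log2 fold change in HepG2, as did 47.7% of all genes tested. Their median was 0.69, and none passed an adjusted p of 0.05. DDX21, an RNA helicase that acts in both transcription and processing of ribosomal RNA, was at 315, 197 and 363 CPM in the controls and at 708, 604 and 500 CPM after HME. The groups did not overlap, and the log2 fold change was 1.07 (SE 0.33, adjusted p = 0.10). NPM1 (nucleophosmin), an abundant chaperone of the nucleolus, was at 1056, 273 and 1374 CPM in the controls and at 1585, 1697 and 1582 CPM after HME. A large part of its log2 fold change of 0.89 (SE 0.49, adjusted p = 0.32) came with HepG2 control 2, the library at 273 CPM, and without that library the value was 0.49 (SE 0.24). The other two values were 0.49 (SE 0.31) for NOLC1, a phosphoprotein that shuttles between nucleolus and cytoplasm, and 0.01 (SE 0.35) for NCL (nucleolin), a protein that binds the ribosomal RNA precursor.

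The box C/D group showed no common direction. Its log2 fold changes were 0.33 (SE 0.32) for RRP9, a protein of the U3 particle, 0.16 (SE 0.30) for NOP58 and -0.30 (SE 0.32) for NOP56, the paired core proteins, and -0.51 (SE 0.41) for FBL (fibrillarin), the methyltransferase of the particle. FBL was at 302, 771 and 408 CPM in the HepG2 controls and at 395, 355 and 298 CPM after HME. The negative FBL value thus rested on HepG2 control 2, the library at 771 CPM.

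In the group of the small subunit processome and 40S maturation, 9 of 12 members had a positive log2 fold change, against 47.7% of all genes tested. The median of the group was 0.34, and 3 members met the thresholds of the study. BYSL (bystin), which acts in late steps of 40S assembly, was at 47.9, 21.8 and 36.0 CPM in the controls and at 72.4, 66.1 and 79.9 CPM after HME (log2 fold change 1.06, SE 0.33, adjusted p = 0.11). It was called in 1 of the 9 other settings. NOB1, the nuclease that makes the 3′ end of the 18S ribosomal RNA, was at 99.5, 28.7 and 117 CPM in the controls and at 157, 159 and 195 CPM after HME (log2 fold change 1.09, SE 0.45, adjusted p = 0.19, and 0.72 without HepG2 control 2). WDR43, a processome subunit that joins the precursor early, was at 137, 99.7 and 83.7 CPM in the controls and at 192, 204 and 159 CPM after HME (log2 fold change 0.80, SE 0.31, adjusted p = 0.18). For all 3 genes the groups did not overlap. TSR1, a GTPase-like factor of late 40S precursors, was also without overlap, at 26.2 to 34.1 CPM in the controls and 36.0 to 53.0 CPM after HME (log2 fold change 0.61, SE 0.30, adjusted p = 0.27). The remaining processome members had smaller values, from 0.52 (PNO1, SE 0.40) to -0.23 (RRP12, SE 0.36), with NOP14 at 0.41 and HEATR1 at -0.17.

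Among the 60S maturation factors the balance was the opposite, with 10 of 12 members below 0 and a median log2 fold change of -0.31, again with no member past an adjusted p of 0.05. Of all genes tested, 5938 of 11343 were below 0. RRP1, a factor of early 60S precursors, was at 15.3, 36.1 and 17.4 CPM in the controls and at 11.9, 9.90 and 9.61 CPM after HME. These RRP1 groups did not overlap, and the log2 fold change was -1.11 (SE 0.44, adjusted p = 0.18), but without HepG2 control 2, the highest library, it was -0.56 (SE 0.31, adjusted p = 0.30). MRTO4, which holds the place of a stalk protein on 60S precursors, was at 53.8, 89.1 and 47.3 CPM in the controls and at 41.2, 33.9 and 36.6 CPM after HME (log2 fold change -0.77, SE 0.35, adjusted p = 0.24, and -0.37 without HepG2 control 2). NOP16 was the exception at the thresholds of the study, at 52.4, 23.7 and 52.5 CPM in the controls and 60.5, 92.6 and 73.9 CPM after HME (log2 fold change 0.84, SE 0.36, adjusted p = 0.21). The 3 proteins of the PeBoW complex, PES1, BOP1 and WDR12, gave -0.63 (SE 0.46), -0.37 (SE 0.48) and -0.22 (SE 0.29) on the log2 scale. Without HepG2 control 2 these values were 0.03, 0.43 and -0.15, so that the signs of PES1 and BOP1 rested on that library, as did that of GNL3 (-0.39 with it and 0.30 without it). The values of WDR74 (-0.02) and NIP7 (-0.05), also counted below 0, were close to 0. NOP2, an RNA methyltransferase of the 60S precursor, was the other member above 0 (0.58, SE 0.33).

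**Figure D2:**
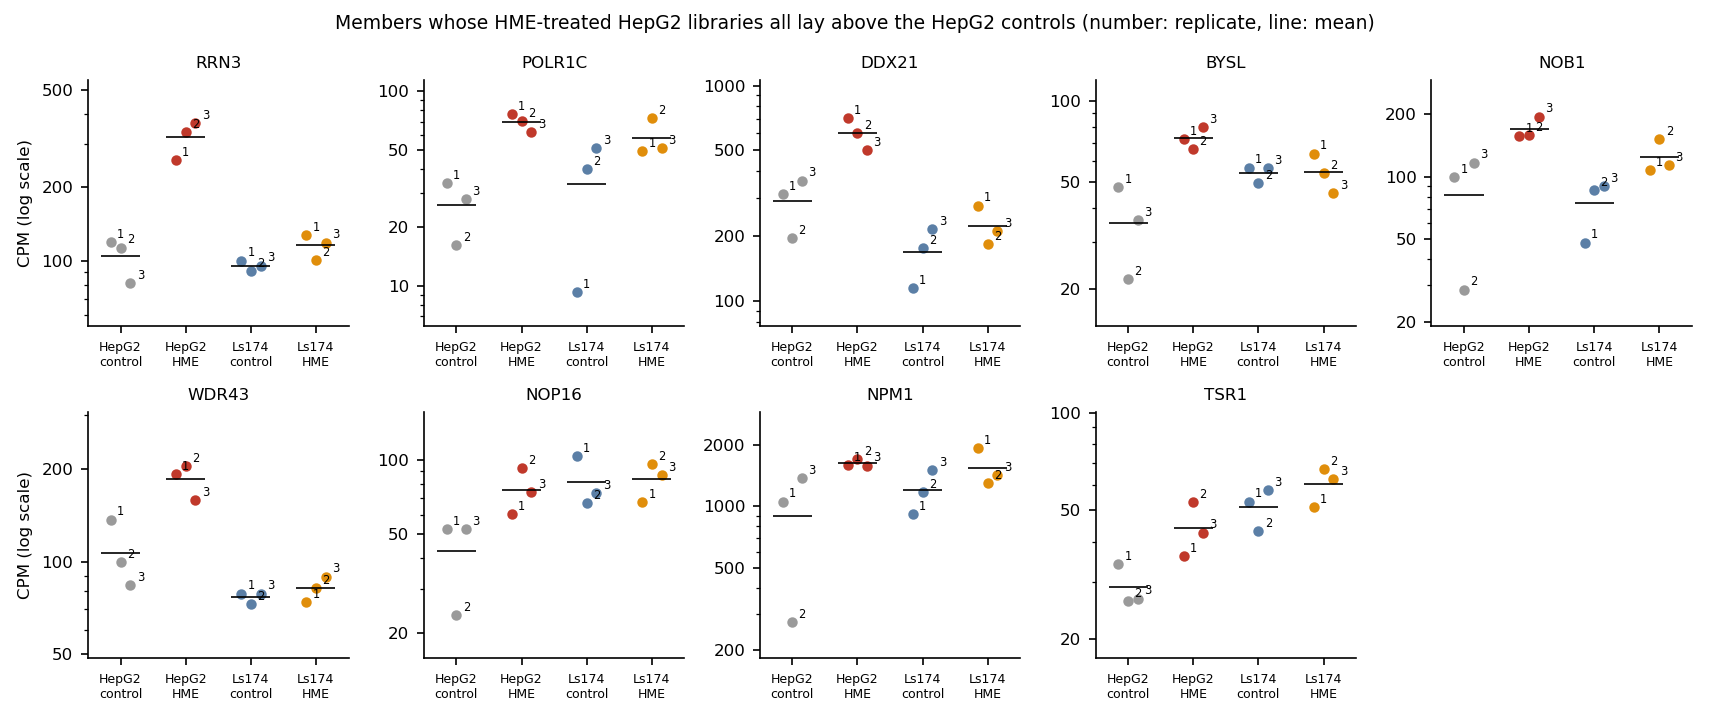
Level in CPM (y axis, log scale) of the 9 members whose HME-treated HepG2 libraries all lay above the HepG2 controls, in each of the 4 groups (x axis), with 1 point per library numbered by replicate and a line at the group mean. RRN3 in HepG2 is between 259 and 367 CPM after HME and at most 120 CPM in the controls, while HepG2 control 2 is the lowest control in 7 of the 9 panels.

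Without HepG2 control 2, RRN3 and POLR1C were again the 2 members called higher (background 5.67%) and none was called lower (background 2.07%). The median of the 38 members moved from 0.10 to 0.29, and 28 instead of 21 members were above 0. The median of all genes tested moved from -0.04 to 0.01, and 50.8% instead of 47.7% of them were above 0. The 60S group then had 6 members above and 6 below 0 (median -0.06), so that its tilt to lower values rested on that library. The 40S group kept its direction, with 11 of 12 members above 0 (median 0.30). When libraries were scaled by their size alone, the median of all genes moved from -0.04 to -0.20 and that of the members from 0.10 to -0.029. Under this scaling the 40S group still had 9 and the 60S group 2 members above 0. With any 1 of the HepG2 libraries left out, the log2 fold change lay between 0.90 and 1.24 for DDX21. It lay between 0.86 and 1.33 for BYSL and between 0.60 and 1.00 for NOP16.

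**Figure D3:**
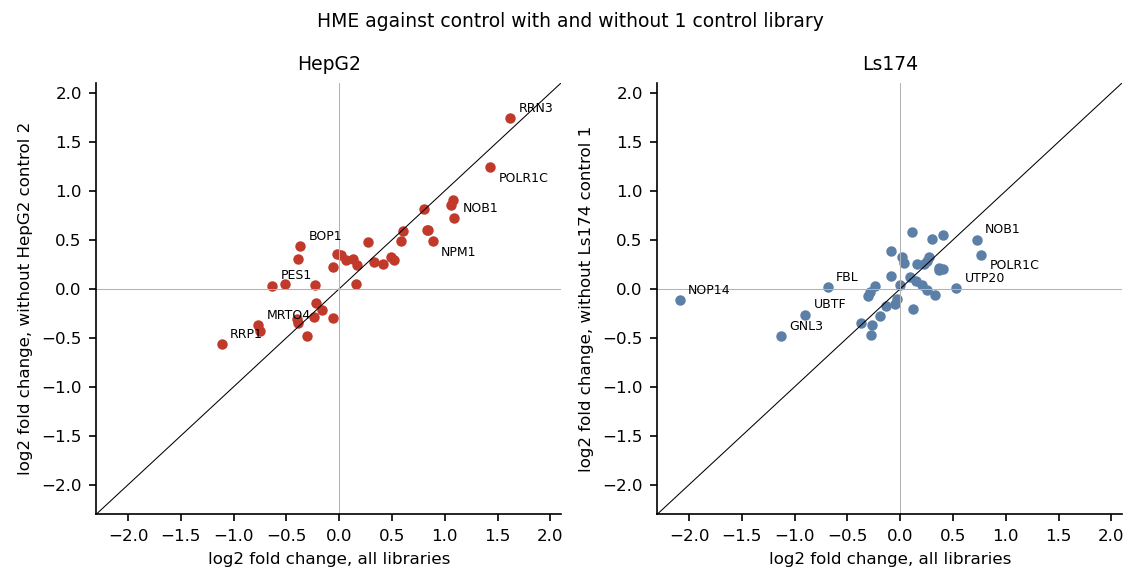
Log2 fold change of HME against control for the 38 members with all libraries (x axis) and without the control library that stood apart (y axis), for HepG2 (left, without control 2) and Ls174 (right, without control 1); the diagonal marks equal values. RRN3 (1.62 and 1.74) lies near the diagonal, while NOP14 in Ls174 moves from -2.09 to -0.12.

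In Ls174 cells no member was called by edgeR at an adjusted p under 0.05, at a background of 0.318% of 11319 genes called higher and 0.866% called lower. DESeq2 called no member either, with 143 of 11319 genes called higher and 291 called lower. DESeq2 gave no adjusted p for NOP14 in this comparison, between the untreated lines or in the interaction, so NOP14 could not be called by it there. At an unadjusted p under 0.05 there were 3 members (7.89%, compared to 13.6% of all genes tested), and all 3 met the thresholds of the study, with NOB1 higher (1 of 38, background 4.11%) and GNL3 and NOP14 lower (2 of 38, background 7.85%). The groups did not overlap for 2 members that were higher, NOB1 and RRN3 (background 11.6%), and 3 that were lower, GNL3, UBTF and RRP12 (background 12.2%). The median log2 fold change of the members was 0.06, with 21 above and 17 below 0, compared to 0.00 for all genes tested, of which 49.9% were above 0.

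NOB1 was at 48.2, 86.6 and 90.1 CPM in the Ls174 controls and at 108, 152 and 114 CPM after HME. The log2 fold change was 0.72 (SE 0.27, adjusted p = 0.31), and it was 0.50 (SE 0.18, adjusted p = 0.10) without Ls174 control 1. NOB1 was the 1 member whose treated libraries lay above the controls at the thresholds of the study in both lines. The main region of NOB1 overlaps an exon of a gene on the opposite strand, and whether the counting used the strand is not given in the sources used here.

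NOP14, a processome protein needed for 18S ribosomal RNA, was at 1236, 126 and 134 CPM in the Ls174 controls and at 127, 116 and 114 CPM after HME. The first control alone was high, and the log2 fold change of -2.09 (SE 0.82, adjusted p = 0.33) became -0.12 without it. The main region of NOP14 overlaps an antisense exon as well. In all, 10 of the 38 main regions do so, also those of GNL3, TSR1, HEATR1, NIP7, BOP1, NOP58, WDR74 and NOP56. Among the deposited regions, the main region of NCL (96.8% of its counts) also overlaps one of AC017104.2, a gene on the opposite strand. GNL3 (nucleostemin), a nucleolar GTPase, was at 146, 48.4 and 60.4 CPM in the controls and at 29.1, 43.4 and 43.7 CPM after HME. The same control was the highest for GNL3, and the log2 fold change was -1.13 (SE 0.42, adjusted p = 0.30), or -0.48 (SE 0.20, adjusted p = 0.15) without it. FBL and UBTF followed this pattern, with 1310 CPM of FBL and 71.8 CPM of UBTF in Ls174 control 1 compared to at most 493 and 27.4 CPM in the other Ls174 libraries. Without Ls174 control 1 there was still no member called higher (background 3.06%) or lower (background 5.33%) by edgeR. At an unadjusted p under 0.05 there were 6 members, which is 15.8% of them compared to 23.1% of all genes tested. The 6 were NOB1, PES1 (0.57) and EBNA1BP2 (0.55) above 0, and RRS1 (-0.47), GNL3 and NCL (-0.37) below 0.

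RRN3 and POLR1C, the members called in HepG2, had lower values in Ls174. RRN3 was at 100, 90.6 and 95.8 CPM in the Ls174 controls and at 128, 101 and 119 CPM after HME (log2 fold change 0.27, SE 0.19, adjusted p = 0.55). POLR1C was at 9.34, 40.04 and 50.9 CPM in the controls and at 49.6, 72.9 and 51.3 CPM after HME (log2 fold change 0.76, SE 0.48, adjusted p = 0.52). The untreated level of RRN3 was close in both lines, and the treated HepG2 libraries were the only ones above 128 CPM.

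The difference between the responses of the lines was tested with the interaction of line and HME over all 12 libraries and 13040 genes. In edgeR, no member was called with a response higher (background 0.0307%) or lower (background 0.613%) in Ls174 than in HepG2. At an unadjusted p under 0.05 there were 3 members (7.89%, compared to 13.2% of all genes tested), all with the lower response in Ls174. They were RRN3, with a difference in log2 fold change of -1.34 (SE 0.36, adjusted p = 0.12), BYSL (-1.02, SE 0.41, adjusted p = 0.29) and NOP14 (-2.45, SE 0.93, adjusted p = 0.26). The NOP14 value rested on Ls174 control 1. Without both control libraries that stood apart, RRN3 was called (-1.34, SE 0.32, adjusted p = 0.0368), 1 of 38 members lower at a background of 2.4%, and none was called higher at a background of 0.848%. DESeq2 called RRN3 with all libraries as well (adjusted p = 0.00816), with 309 of 13040 genes called lower. The response of RRN3 was therefore larger in HepG2 at every setting that was run, and whether it passed the threshold depended on the setting. For POLR1C, the difference was -0.63 with all libraries and -0.80 (SE 0.33, adjusted p = 0.20) without both controls, and it was not called.

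The untreated lines differed in few members. In the Ls174 controls compared to the HepG2 controls, NOP56 was lower and no member was higher by edgeR, which is 1 of 38 at a background of 14.2% of 11907 genes called lower and 0 of 38 at a background of 9.33% called higher. NOP56 was at 469, 272 and 495 CPM in the HepG2 controls and at 102, 115 and 132 CPM in the Ls174 controls. The lowest HepG2 control was thus above the highest Ls174 control, and the log2 difference was -1.85 (SE 0.35, adjusted p = 0.0044), or 3.60-fold lower in Ls174. The difference was called in all 6 fits with 1 library left out and in all 8 other planned settings (adjusted p at most 0.0314). HME-treated HepG2 cells also had 274 to 363 CPM and HME-treated Ls174 cells 86.7 to 158 CPM, so the order of the lines was the same after treatment. The main region of NOP56 overlaps an exon of IDH3B on the opposite strand.

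**Figure D4:**
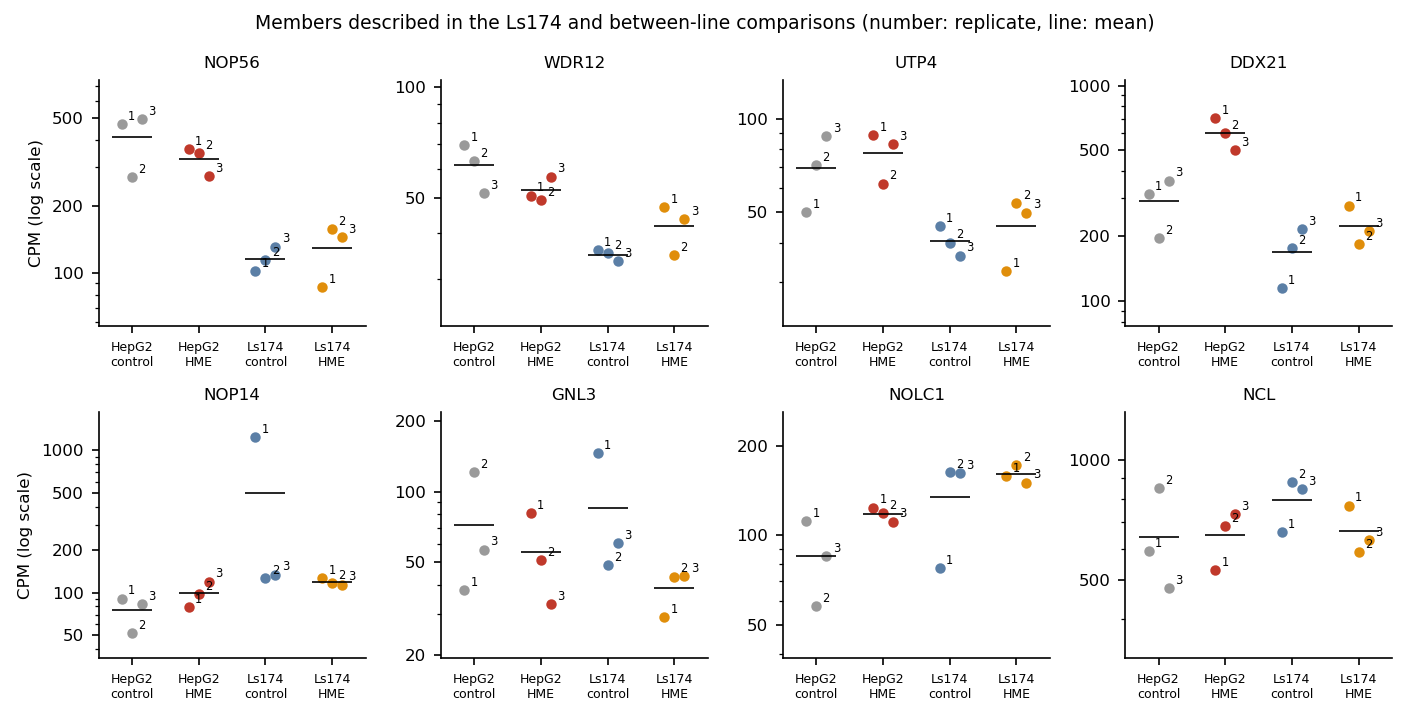
Level in CPM (y axis, log scale) of 8 members in the 4 groups (x axis), with 1 point per library numbered by replicate and a line at the group mean. NOP56 is at 272 CPM or above in HepG2 controls and at 132 CPM or below in Ls174 controls, and NOP14 shows the single Ls174 control at 1236 CPM.

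The untreated groups did not overlap for 5 members that were higher in Ls174 (NOP14, TSR1, NOP16, BYSL and HEATR1; background 20.3%) and 4 that were lower (NOP56, WDR12, UTP4 and WDR43; background 22.3%). WDR12 was at 69.6, 62.9 and 51.3 CPM in HepG2 and at 35.9, 35.4 and 33.5 CPM in Ls174 controls, a log2 difference of -0.85 (SE 0.30, adjusted p = 0.077). Without both control libraries that stood apart, 2 members were called higher in Ls174, NOLC1 (0.70, adjusted p = 0.0236) and NCL (0.67, adjusted p = 0.0341), at a background of 19.9%. Under the same setting 4 were called lower at a background of 24.1%, namely NOP56 (-1.99, adjusted p = 1.8e-05), DDX21 (-0.81, adjusted p = 0.0119), WDR12 (-0.84, adjusted p = 0.0169) and UTP4 (-0.87, adjusted p = 0.0278). In both settings the share of members called was below the background.

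Further members of the processome and of the 60S chain are given by their range. HEATR1, a processome protein that also acts in transcription of ribosomal DNA, lay between 33.6 and 64.0 CPM over the 12 libraries, with log2 fold changes of -0.17 (SE 0.29) in HepG2 and -0.13 (SE 0.21) in Ls174. NIP7, a factor of 60S precursors, lay between 41.7 and 62.6 CPM in all libraries but HepG2 control 2, where it was at 26.8 CPM, and its values after HME were -0.05 (SE 0.34) and -0.03 (SE 0.22). UTP18, a processome subunit, lay between 49.2 and 89.1 CPM, with -0.06 (SE 0.34) and -0.19 (SE 0.25). For these 3 genes control and treated libraries overlapped in both lines. RRS1, which brings the 5S ribosomal RNA particle to the 60S precursor, was at 48.7, 56.7 and 69.9 CPM in the HepG2 controls and 40.4, 50.9 and 40.8 CPM after HME, and at 36.9, 63.0 and 64.3 CPM in the Ls174 controls and 38.3, 43.7 and 54.5 CPM after HME. The groups overlapped in both lines, and without Ls174 control 1, the lowest control, the Ls174 groups of RRS1 did not overlap. EBNA1BP2, an early 60S factor, had values of opposite sign in the lines (-0.24, SE 0.30, in HepG2 and 0.40, SE 0.30, in Ls174), with an interaction of 0.67 (SE 0.44, adjusted p = 0.56) that was not called.

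A second region held over 5% of the counts in 5 members. It held 21.4% in UTP18, 9.49% in UTP20, 9.11% in WDR74 and 5.47% in UTP4, with 26 to 458 counts in all libraries together, and 26.7% in NPM1, which is described here because its second region had 11732 counts. The second region of UTP18 is 39 bases wide and annotated as coding over its whole width. Whether a read across exons was counted in more than 1 region is not given in the sources used here. The distal region of NPM1 (GRCh37, chr5:170837570-170838338, plus strand) held 73.1% of its counts, and both this region and the upstream region (chr5:170833410-170834326) contain the polyadenylation signal AATAAA at most 30 bases before an annotated transcript end. The distal region holds another such signal that is not shown, which starts at chr5:170837862, 15 bases before an annotated end. The distal signal shown starts 7 bases before an annotated end. For each region 1 signal is shown in capitals within 30 bases of the plus strand, at chr5:170837868-170837897 for the distal and chr5:170833698-170833727 for the upstream region.
NPM1 distal: actcagtattttAATAAAgtagcacggttt
NPM1 upstream: ccttagctgctcAATAAAtatttgaatgca
The upstream end took 26.5%, 44.2% and 38.1% of the counts of both ends in the HepG2 controls and 31.2%, 20.1% and 27.9% after HME. The HepG2 groups overlapped, at 36.3% ± 8.98 and 26.4% ± 5.71 (SD, n = 3 each; exact permutation test, two-sided p = 0.3). In Ls174 the share was 42.4%, 36.6% and 23.2% in the controls and 18.4%, 23.7% and 20.9% after HME. These groups also overlapped, at 34.1% ± 9.88 and 21.0% ± 2.65 (SD, n = 3 each; exact permutation test, two-sided p = 0.2, where 0.1 is the smallest p that 3 against 3 allows). The shallowest value, that of HepG2 control 2, rested on 430 counts (95% Wilson interval 39.6% to 48.9%, for counting error only). Over the 5 members, 9 tests of the share of the second region could be made (UTP20 had no count in 1 Ls174 control), and the smallest exact permutation p was 0.2 (0.54 after adjustment over the 9). In both lines the control that stood apart had the highest upstream share of NPM1. NPM1 has 45 pseudogenes in the tables, whose summed count was 17.6% to 54.6% of that of NPM1, so its level is uncertain to the extent that reads were placed on copies.

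**Figure D5:**
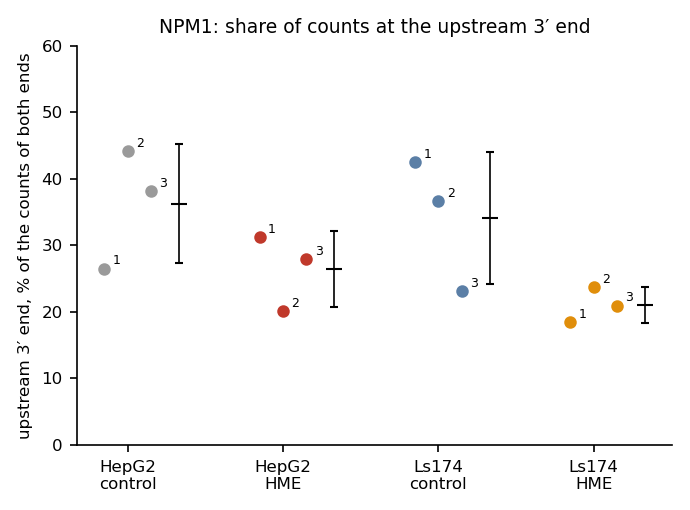
Share of NPM1 counts at the upstream 3′ end (y axis, percent of the counts of both ends) in the 4 groups (x axis), with 1 point per library numbered by replicate and the mean with SD (n = 3) beside the points. The HME-treated Ls174 libraries lie between 18.4% and 23.7%, and the third Ls174 control (23.2%) lies within their range.

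A wider list of 106 other ribosome biogenesis genes was read beside the members. In HepG2, 1 of the 105 tested was called higher (0.952%, against the background of 2.77%) and none lower by edgeR. At an unadjusted p under 0.05 there were 16 (15.2%, against 22.2% of all genes), and the median log2 fold change was 0.12. By the thresholds of the study 13 were higher (12.4%, against 11.3%) and 3 lower (2.86%, against 10.9%). The gene called was RCL1, a processome protein, at 30.9, 19.9 and 28.3 CPM in the controls and 84.7, 98.3 and 87.1 CPM after HME (log2 fold change 1.78, SE 0.30, adjusted p = 0.0138). RCL1 stayed between 12.3 and 37.7 CPM in all Ls174 libraries. In Ls174, 104 genes were tested and none was called in either direction by edgeR, with 4 at an unadjusted p under 0.05 (3.85%, against 13.6% of all genes). The lowest p there belonged to NOP9, a processome factor (log2 fold change -0.85, SE 0.28, adjusted p = 0.24), and DDX31, a putative 60S helicase (-1.23, SE 0.50, adjusted p = 0.34), and these did not pass the test. Between the untreated lines 4 genes of the list were called higher in Ls174 (3.81%, against 9.33%) and 5 lower (4.76%, against 14.2%), and in the interaction edgeR called none, with 6 at an unadjusted p under 0.05 (5.66%, against 13.2%).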

How the data were processed

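RNA of 12 cultures was sequenced from 3′ libraries (QuantSeq kit, Ion Proton). Alignment to hg19 (GRCh37) by the authors used Hisat2, and metaseqR2 assigned the reads to 3′ regions. The deposited values are raw counts, not normalized. The submitters' processing notes also list Bowtie2 and Trimmomatic. Regions were summed per gene. Each comparison was fitted by itself in edgeR 4.0.16 (R 4.3.3) with TMM scaling, filterByExpr by group, the quasi-likelihood F test and Benjamini-Hochberg adjustment over all genes tested, with library sizes recomputed after the filter and the SE taken from the F statistic. CPM use the TMM factors of all 12 libraries. The fits were tested on simulated data. Intervals and the exact permutation test used scipy 1.17.1. Alternatives were DESeq2 1.42.0, other scalings and filters, the replicate block, regions of 1 gene, main regions, 1 fit of 12 libraries and leaving out libraries. Dropping both control libraries that stood apart was chosen after seeing the data. The members, lists and tests were chosen with earlier results of these data known. Values of every library are given for members with an adjusted p under 0.05, and for up to 12 members per HME comparison with the largest fold change at an unadjusted p under 0.05. Other members with such values were picked after these were seen. Of the wider list, up to 5 genes called per HME comparison, or the 2 with the lowest p, are named.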

Additional observations from a re-analysis of the deposited data

How the results depend on the processing

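For single members, the alternatives were followed for the 20 results with an unadjusted p under 0.05 in the edgeR fit of all libraries compared. None of these changed direction under any alternative, while 17 of their values lost and 15 gained a call. Members outside these results did change sign, as PES1, BOP1 and GNL3 did in HepG2 without HepG2 control 2. In HepG2 the count of members called higher (2) was 1 with library size only, upper-quartile scaling, at least 10 counts in every library and main regions only, each time without POLR1C, 0 with the replicate block (adjusted p = 0.0626 for RRN3 and 0.0721 for POLR1C), and 0 to 2 with 1 library left out. Of all genes, 245 of 11343 were called higher with library size only, and 290 of 11343 with upper-quartile scaling and with the replicate block. With at least 10 counts these were 154 of 8394, and with main regions only 309 of 11064. With 1 library left out they lay between 94 of 11987 and 675 of 11899. At the thresholds of the study, higher members (7) were 4 with library size only and 4 to 8 with 1 library left out, and lower members (1) were 2 with library size only, upper-quartile scaling and 1 fit of 12 libraries and 0 to 4 with 1 library left out. The median of the members was -0.029 with library size only and 0.011 to 0.29 with 1 library left out. In Ls174 the members called lower (0) were 2 without a filter (NOP14 and GNL3), where 418 of 22568 genes were called lower. At the thresholds of the study, higher members (1) were 0 with library size only and with 1 fit of 12 libraries, 2 without a filter and 0 to 2 with 1 library left out, and lower members (2) were 4 without a filter, 0 with the replicate block and 0 to 4 with 1 library left out. The share over all genes at these thresholds was not computed for the alternative scalings, filters and fits, in either line. Between untreated lines, members called higher (0) were 1 (NOP14) with library size only, upper-quartile scaling or no filter, 2 without both control libraries that stood apart and 0 to 1 with 1 library left out. Of all genes, 1329 of 11907 were called higher with library size only, 1252 of 11907 with upper-quartile scaling and 1643 of 24571 without a filter. With 1 library left out they lay between 748 of 12361 and 1392 of 12833. Members called lower (1) were 2 with DESeq2 (2057 of 11907 genes called lower) and 4 without both control libraries that stood apart (3081 of 12790 genes). The median of the members (0.04) was 0.25 with library size only, 0.15 with upper-quartile scaling, 0.16 without both such libraries and -0.11 to 0.11 with 1 library left out. In the interaction 1 member was called lower with DESeq2 (RRN3), without a filter (NOP14) and without both such libraries (RRN3). The genes called lower in these settings were 309 of 13040, 271 of 27326 and 320 of 13327, in that order. The cause of these differences was not tested, and fits with 1 library fewer have fewer samples. Whether replicate numbers pair the samples is not known. Deviations of same-numbered libraries from their group means had correlations between -0.15 and 0.07 within a line. Differently numbered libraries were not compared, so this check could not settle pairing. The depth limits statements on UTP15 and UTP20.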
